A study of Mus musculus with 12 samples.

Results

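The question was whether loss of Runx3 is read differently by chondrocytes of the superficial zone (SFZ) and of the deep zone (DZ), and it was addressed as the interaction of genotype and zone in the RNA-seq of both cell populations. All 12 libraries entered this comparison, out of 12 in the series, with 3 libraries in each of 4 groups. Cntl mice carried the floxed Runx3 alleles (Runx3 fl/fl) without Cre, and Runx3cKO mice carried the same floxed alleles with Col2a1-Cre, both of the strain labelled C57BL/6 (C57BL/6J in the study's methods) and 5 days old. The floxed alleles are therefore common to every library, and the Cre acts only where and when the Col2a1 promoter has been active. The cells were released from the cartilage at the ends of the femur and tibia by successive enzyme digestions, the earlier fraction being the SFZ cells and the later fraction the DZ cells, and the study's methods state that such cells were grown as a monolayer. The cells are described as taken from 3 individual littermate mice of each genotype, so that SFZ and DZ libraries of a genotype share their mice. The labels number the libraries 1 to 3 in each group and do not say that a number stands for 1 mouse in both zones, so the zones were fitted as separate samples. The measure was 1 value per gene and library, here called FPKM (fragments scaled by transcript length and by the size of the library), and a difference is always given as Runx3cKO minus Cntl on the log2(FPKM + 1) scale, where the differences of weakly expressed genes come out too small. As the deposited values are not counts, the number of reads behind each value is unknown.

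Runx3 belongs to the Runt family of transcription factors, with Runx1 and Runx2, which bind DNA together with their partner Cbfb. In cartilage, Runx2 and Runx3 are known for their joint part in the maturation of chondrocytes towards hypertrophy and mineralization. The surface cells of articular cartilage secrete lubricin, the product of Prg4, whereas deeper cells deposit the aggrecan- and collagen-rich matrix and, towards the bone, express hypertrophy genes. An interaction in such a design asks, gene by gene, whether the difference between genotypes in the DZ is larger or smaller than that in the SFZ.

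Runx3, the targeted gene, was not lower in the libraries labelled Runx3cKO. In SFZ cells the Cntl libraries 1 to 3 held 10.73, 5.98 and 6.65 FPKM, against 11.83, 9.07 and 3.42 FPKM in the Runx3cKO libraries 1 to 3. In DZ cells the values were 12.67, 12.65 and 7.66 FPKM for Cntl and 15.95, 12.66 and 8.14 FPKM for Runx3cKO. The groups overlapped in both zones, with differences of -0.04 in SFZ and 0.13 in DZ (standard error of each, 0.39) and an interaction of 0.17 (exact permutation p = 0.80). The table holds 1 value per gene, exons were not analysed here, and the groups are named by their labels throughout. Runx1, Runx2 and Cbfb also had overlapping groups in both zones, with interactions of 0.50, 0.17 and -0.21 (standard errors 0.43, 0.20 and 0.19). Leaving out 1 library gave 0.20 to 0.69 for Runx1 (without SFZ Runx3cKO library 2 and DZ Cntl library 3), 0.098 to 0.30 for Runx2 (without DZ Cntl library 1 and DZ Cntl library 3) and -0.31 to -0.092 for Cbfb (without DZ Cntl library 1 and DZ Runx3cKO library 3). In DZ, Runx3 and Runx1 were higher in each Runx3cKO library than in the Cntl library of its number, although for Runx3 the values at number 2, 12.65 and 12.66 FPKM, were nearly equal. With the Runx3cKO libraries of number 1 alone the interaction of Runx3 was -0.054.

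The zone labels were read against marker genes. The 20 superficial zone genes summed to 571 to 1861 FPKM in SFZ libraries and to 154 to 490 FPKM in DZ libraries, with no overlap. Prg4 in Cntl was at 7.13 to 22.24 FPKM in SFZ against 1.22 to 1.47 FPKM in DZ. In Runx3cKO its zones overlapped, at 2.13 to 6.95 and 1.32 to 5.72 FPKM. Gdf5 of this list, named after its values were seen, was at 1.37 to 7.59 FPKM in SFZ and 4.59 to 11.83 FPKM in DZ. The 24 tendon and fibrous tissue genes also separated the zones, at 5852 to 13310 FPKM in SFZ and 1523 to 4048 FPKM in DZ. Col2a1, the cartilage collagen, was at 3049 to 9229 FPKM in SFZ and 11248 to 22791 FPKM in DZ. Markers of other cells were also read. Summed levels of 22 macrophage markers were 13.3 to 291 FPKM in SFZ libraries, lowest in Cntl library 3 and Runx3cKO library 2, and in DZ cells they were 15.6 to 47.9 FPKM in Cntl and 8.06 to 13.2 FPKM in Runx3cKO. The 26 skeletal muscle markers summed to 308 FPKM in SFZ Cntl library 2 and to at most 26.8 FPKM in every other library. The 10 erythroid markers present summed to at most 0.56 FPKM. The 4 Y-linked genes Ddx3y, Eif2s3y, Uty and Kdm5d summed to 12.1 to 52.4 FPKM in the 6 Cntl libraries and to 28.3 and 29.6 FPKM in Runx3cKO library 1 of SFZ and DZ, but to at most 0.06 FPKM in Runx3cKO libraries 2 and 3 of both zones. The part of this difference in the results was not tested beyond a repeat with the Runx3cKO libraries of number 1 alone, which was chosen after seeing the data and is given for results it moves.

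No gene passed the adjusted threshold for zone dependence. Of 11765 genes tested by limma with Benjamini-Hochberg adjustment, 0 had an adjusted p under 0.05 for the interaction (lowest 0.999), and 99 had an unadjusted p under 0.05, 0.841% of the genes, where uniform p-values would place 5%. Of these, 78 had the higher difference in DZ (0.663%) and 21 the lower (0.178%). Quantile normalization gave 52 and 52 in place of 78 and 21. With the library number within each genotype as a replicate block, as would hold if a number marked 1 mouse, 949 genes had an unadjusted interaction p under 0.05, 827 with the higher and 122 with the lower difference in DZ, and 0 passed after adjustment (lowest limma adjusted p 0.360). The effect averaged over both zones gave 0 genes at the adjusted threshold and 219 at the unadjusted (1.86%), 158 higher (1.34%) and 61 lower (0.518%) in Runx3cKO, and quantile normalization gave 121 and 87. Within zones, 0 genes passed after adjustment in either, while 36 SFZ genes (0.306%) and 410 DZ genes (3.48%) had an unadjusted p under 0.05. In SFZ these were 23 higher (0.195%) and 13 lower (0.11%), an order that turned to 92 and 136 without the filter on low values, to 98 and 247 with a block within genotype, and to 47 and 61, 20 and 71, 33 and 41, and 313 and 386 without SFZ Cntl library 1, SFZ Cntl library 3, SFZ Runx3cKO library 1 and SFZ Runx3cKO library 2. In DZ they were 333 higher (2.83%) and 77 lower (0.654%), which became 209 and 164 after quantile normalization and 256 and 151 with median-of-ratios size factors. With the library number as a replicate block within each zone, the DZ count at the unadjusted threshold was 1034, of which 729 were higher and 305 lower, and 0 passed after adjustment (lowest limma adjusted p 0.430). All genes named in the following are therefore described by their values, and none of them is called as changed.

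Across the 11765 genes, the differences of both zones went together only weakly and in the opposite sense. Pearson's r across genes was -0.129 and Spearman's rho -0.118, and 45.8% of genes had the same sign in both zones, 27.6% being higher and 18.2% lower in both, while 54.2% had opposite signs. The differences of the zones shared no library, but the zones share their mice, so the differences are not independent. Nor are genes independent replicates. The sign of r rested on single libraries, as r was -0.453 without SFZ Cntl library 1, 0.0347 without SFZ Cntl library 2 and 0.243 without SFZ Cntl library 3. The largest quadrant, 34.2% of the genes, was lower in SFZ and higher in DZ, and the smallest was lower in both.

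**Figure D1:**
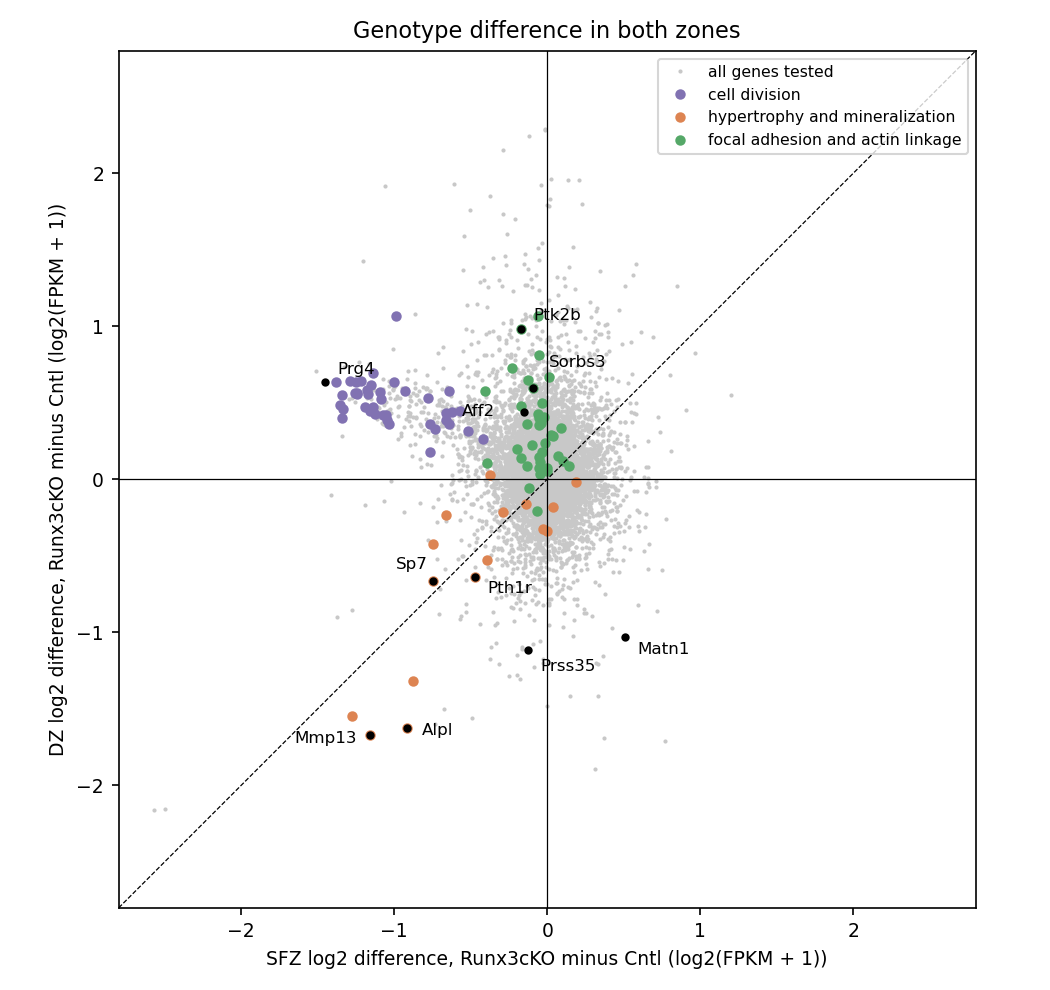
Difference between genotypes (Runx3cKO minus Cntl, log2(FPKM + 1)) in SFZ on the x axis and in DZ on the y axis, 1 point per gene for the 11765 genes tested, with 3 gene lists in colour, 10 genes labelled and a dashed line where both zones are equal. The cell division genes lie at the upper left, lower in SFZ and higher in DZ, and Mmp13, Alpl, Sp7 and Pth1r lie at the lower left, Sp7 and Pth1r nearer to the dashed line than Alpl and Mmp13.

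Of the 10 genes with the lowest interaction p among those with the higher difference in DZ, Prg4 had the largest interaction. Prg4 (Entrez gene 96875, mm9 chr1:152296542-152313295, reverse strand) encodes lubricin, the boundary lubricant of the joint surface. In SFZ cells the Cntl libraries held 22.24, 8.38 and 7.13 FPKM and the Runx3cKO libraries 6.95, 2.47 and 2.13 FPKM. Every Runx3cKO value lay below every Cntl value, although the groups nearly touched, with 6.95 beside 7.13 FPKM. In DZ cells the Cntl libraries held 1.39, 1.22 and 1.47 FPKM and the Runx3cKO libraries 5.72, 1.32 and 2.14 FPKM, where the groups overlapped, library 1 was the high one and each Runx3cKO library was above the Cntl library of its number. The difference was -1.45 in SFZ and 0.63 in DZ, and the interaction was 2.09 (standard error 0.70, 95% interval 0.54 to 3.64, limma adjusted p = 0.999). Without DZ Runx3cKO library 1 the interaction was 1.65, with the Runx3cKO libraries of number 1 alone it was 2.12, and a pseudocount of 5 in place of 1 gave 1.24. Of the 19 superficial zone genes tested, Prg4, which had been given for the comparison, was the only member with an unadjusted interaction p under 0.05, which 0.841% of all genes had. Of these genes, 10 were lower in SFZ and 9 in DZ, where 52.4% and 38.2% of all genes tested were. The hyaluronan receptor Cd44 and the matrix protein Tnc had interactions of 1.67 and 0.91 with standard errors of 1.04 and 0.55, and without DZ Cntl library 1 they were 0.99 and 0.46.

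Ptk2b and Sorbs3, a kinase and an adaptor of cell adhesion sites, were higher in Runx3cKO in DZ cells and not in SFZ cells. Ptk2b (Entrez gene 19229, mm9 chr14:66772094-66899889, reverse strand) encodes Pyk2, a tyrosine kinase of the focal adhesion kinase family. It was low in SFZ cells, with 0.83, 1.22 and 0.93 FPKM in Cntl and 0.92, 0.83 and 0.56 FPKM in Runx3cKO. In DZ cells the Cntl libraries held 0.60, 1.33 and 1.10 FPKM and the Runx3cKO libraries 3.68, 2.81 and 2.40 FPKM. All 3 Runx3cKO values of the DZ were thus above all other values of this gene. The difference was -0.17 in SFZ and 0.98 in DZ (standard error of each, 0.18), and the interaction was 1.16 (standard error 0.25, 95% interval 0.59 to 1.72, limma adjusted p = 0.999). Ptk2b ranked first of all genes tested by this measure, and no p for the gene alone is given here or for other genes named by their difference. It was 0.46 with a pseudocount of 5 and 1.84 with 0.1. Sorbs3 (Entrez gene 20410, mm9 chr14:70580275-70607444, reverse strand) encodes vinexin, which binds vinculin. In SFZ cells its values were 37.02, 43.03 and 41.73 FPKM in Cntl and 42.05, 39.61 and 32.55 FPKM in Runx3cKO. In DZ cells they were 18.01, 25.53 and 24.94 FPKM in Cntl and 31.84, 38.31 and 34.01 FPKM in Runx3cKO. The Cntl groups of the zones were apart, and the Runx3cKO values of the DZ lay at 31.84 to 38.31 FPKM, beside an SFZ range of 32.55 to 43.03 FPKM. The interaction was 0.69 (standard error 0.21, 95% interval 0.22 to 1.16), and 0.43 with the Runx3cKO libraries of number 1 alone.

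Prss35 went the other way, being lower in Runx3cKO in DZ cells. Prss35 (Entrez gene 244954, mm9 chr9:86636434-86650680, forward strand) encodes a secreted protein of the serine protease family. In SFZ cells the Cntl libraries held 16.15, 15.95 and 11.28 FPKM and the Runx3cKO libraries 10.76, 13.14 and 15.43 FPKM. In DZ cells the Cntl libraries held 18.08, 23.49 and 30.64 FPKM and the Runx3cKO libraries 7.88, 12.14 and 11.40 FPKM. The genotypes overlapped in SFZ and were apart in DZ. The differences were -0.13 and -1.12, and the interaction was -0.99 (standard error 0.32, 95% interval -1.70 to -0.28). Acan, which encodes aggrecan, had an interaction of -0.58 with a 95% interval from -2.47 to 1.32, which was -1.22 without SFZ Cntl library 1 and -0.024 without SFZ Cntl library 2. Its DZ groups overlapped, with Runx3cKO lower at each number.

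**Figure D2:**
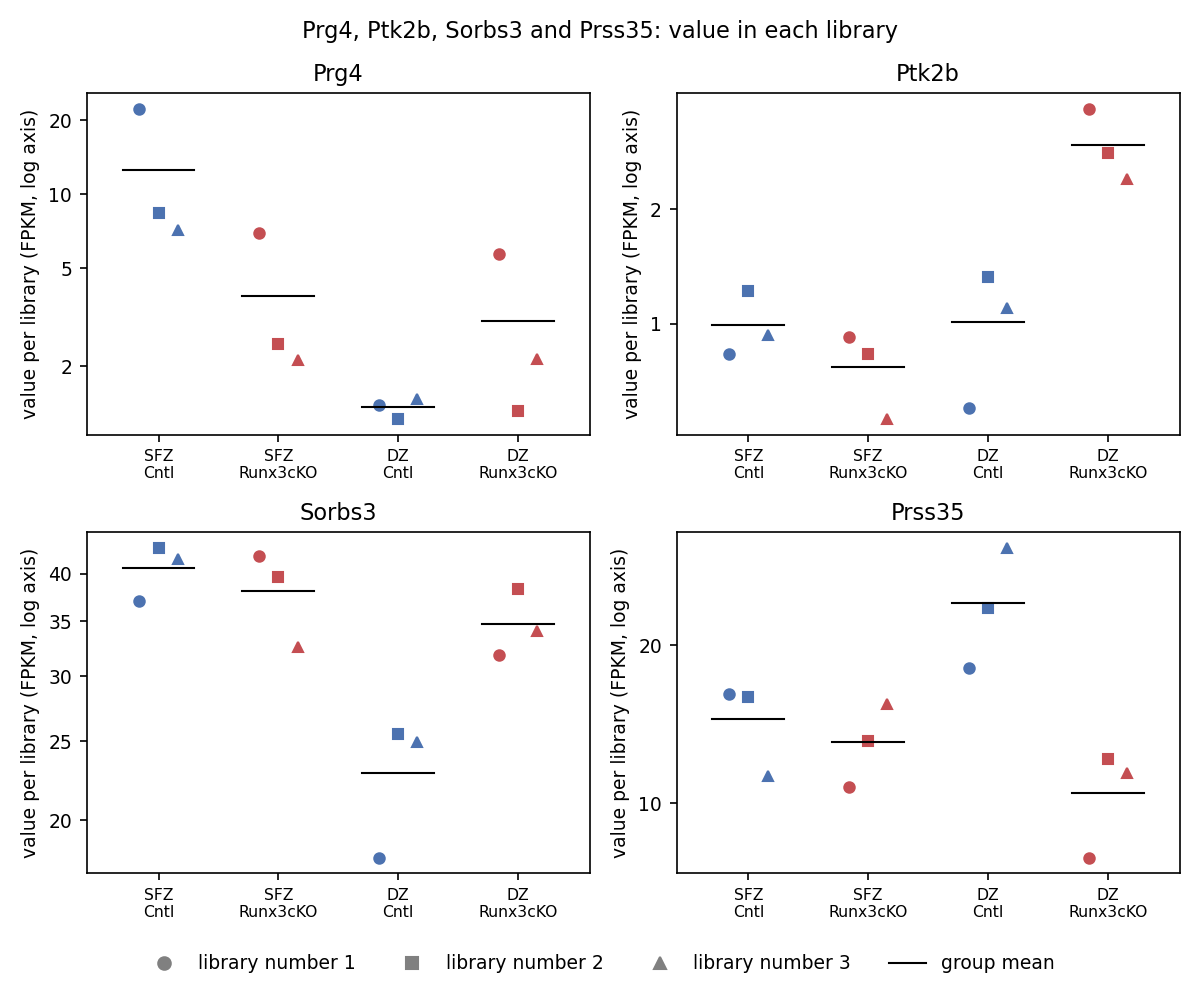
Value of Prg4, Ptk2b, Sorbs3 and Prss35 in each of the 12 libraries (FPKM, log axis), with 1 point per library, its shape giving the library number, and a line at the group mean. Prg4 in SFZ is the panel where every Runx3cKO library lies below every Cntl library, by a small gap. Ptk2b and Sorbs3 lie above Cntl and Prss35 lies below Cntl in DZ only.

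Further genes were named for a low unadjusted interaction p, so their separation in 1 zone is part of how they were chosen. Hoxc13, a homeobox transcription factor, measured 0.09, 0.31 and 0.51 FPKM in DZ Cntl and 3.04, 1.99 and 1.80 FPKM in DZ Runx3cKO, with an interaction of 1.26 (standard error 0.42). Bid, a pro-apoptotic member of the Bcl-2 family, measured 1.89, 4.78 and 3.76 FPKM in DZ Cntl and 6.93, 7.86 and 6.86 FPKM in DZ Runx3cKO, with an interaction of 0.92. The DZ Runx3cKO values of Bid lay close to its SFZ levels of 7.62 to 10.91 FPKM. The other members were the glucocorticoid-activating enzyme Hsd11b1 (interaction 0.76), the hindlimb transcription factor Pitx1 (0.64), the zinc transporter Slc39a8 (0.51), the GTPase-activating protein Arhgap31 (0.43) and a transcript without a gene symbol (1.23). Hsd11b1 had differences of opposite sign, -0.35 in SFZ and 0.41 in DZ, and its SFZ groups overlapped. With the Runx3cKO libraries of number 1 alone the interactions of Bid and Pitx1 were 0.60 and 0.23, and with a pseudocount of 5 those of Hoxc13, Hsd11b1, Slc39a8 and Bid were 0.45, 0.26, 0.21 and 0.53.

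In the other direction, Ppp1r1b, an inhibitor of protein phosphatase 1, was at 208.94, 187.55 and 199.60 FPKM in DZ Cntl and at 88.73, 82.81 and 116.74 FPKM in DZ Runx3cKO, with an interaction of -1.01 (standard error 0.36). The DZ Runx3cKO values were within the SFZ range of 77.22 to 154.93 FPKM. The actin-binding protein Lsp1 had an interaction of -0.80, the chondroitin sulfate synthase Chsy1 one of -0.42 and the transcription factor Sim2 one of -0.65. Chsy1, which builds the sugar chains of aggrecan, was at 54.65, 52.64 and 52.63 FPKM in DZ Cntl and at 39.56, 39.35 and 49.04 FPKM in DZ Runx3cKO, against 29.71 to 35.56 FPKM over all SFZ libraries. Hoxa7 was the member whose SFZ groups were apart, with 6.71, 5.28 and 6.05 FPKM in Cntl and 8.28, 7.55 and 8.33 FPKM in Runx3cKO, and an interaction of -0.44. Plekhg1 (-0.58), Rpe (-0.34), Rwdd2a (-0.82, with overlapping DZ groups and Runx3cKO lower at each number) and 0610010B08Rik (-1.48) complete the rule, and the last has near-identical copies in the genome, so its value is uncertain. Bid, Lsp1, Rpe and Prg4 each overlap another protein-coding gene on the opposite strand in the annotation, and whether counting used the strand is not given in the sources used here.

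Genes whose genotypes were apart in both zones were few, and they mostly went in the same direction. All 3 Runx3cKO values lay outside the range of the 3 Cntl values in SFZ for 286 genes (2.43%, with 1.46% higher and 0.969% lower in Runx3cKO), in DZ for 973 genes (8.27%) and in both zones for 31 genes (0.263%). Of these 31, 18 were higher in both zones (0.153%), 11 were lower in both (0.0935%), and 2 were lower in SFZ and higher in DZ (0.017%). No gene was higher in SFZ and lower in DZ by this measure. The 18 were 10.5% of the 172 genes that stood higher in SFZ and 2.92% of the 617 that stood higher in DZ, while 5.24% of all genes stood higher in DZ. The 11 were 9.65% of the 114 genes that stood lower in SFZ and 3.09% of the 356 that stood lower in DZ, while 3.03% of all genes stood lower in DZ. The 2 with opposite directions were 1.75% of the 114. As the zones share their mice, these shares do not come from independent samples. Leaving out SFZ Cntl library 1 gave 90 genes with opposite directions and 41 with the same, the reverse order.

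The genes apart in both zones in opposite directions were Aff2 and Ift140. Aff2 (Entrez gene 14266, mm9 chrX:66613469-67121212, forward strand), a nuclear protein of the AF4/FMR2 family, measured 3.30, 3.61 and 4.13 FPKM in SFZ Cntl, 3.10, 3.23 and 3.27 FPKM in SFZ Runx3cKO, 3.24, 4.55 and 4.03 FPKM in DZ Cntl and 7.44, 5.01 and 4.80 FPKM in DZ Runx3cKO. Ift140 (Entrez gene 106633, mm9 chr17:25153036-25236440, forward strand), a component of transport within cilia, measured 3.87, 4.10 and 4.05 FPKM in SFZ Cntl, 3.58, 3.56 and 3.85 FPKM in SFZ Runx3cKO, 2.59, 2.96 and 2.86 FPKM in DZ Cntl and 3.21, 3.23 and 3.40 FPKM in DZ Runx3cKO. In SFZ the groups of both genes nearly touched, with 3.27 beside 3.30 FPKM for Aff2 and 3.85 beside 3.87 FPKM for Ift140. The interaction was 0.59 for Aff2 (standard error 0.22) and 0.27 for Ift140 (standard error 0.13). These genes were chosen for lying apart in opposite directions, the interaction of Aff2 was 0.97 with the Runx3cKO libraries of number 1 alone, and Ift140 overlaps Tmem204 on the opposite strand.

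The genes that stood lower in both zones were led by Alpl and Sp7, genes of mineralization. By the smaller of the zone differences, Rgcc followed them and came before Pth1r. Alpl (Entrez gene 11647, mm9 chr4:137297648-137352299, reverse strand) encodes the tissue-nonspecific alkaline phosphatase that provides phosphate for mineral. It measured 36.56, 69.25 and 33.90 FPKM in SFZ Cntl and 32.02, 23.39 and 15.97 FPKM in SFZ Runx3cKO. In DZ cells the Cntl libraries held 22.93, 34.59 and 51.40 FPKM and the Runx3cKO libraries 11.90, 8.43 and 11.43 FPKM. The groups did not overlap in either zone, although the gap in SFZ was small. The difference averaged over zones was -1.27 (standard error 0.25, 95% interval -1.82 to -0.72), and it was not among genes past the adjusted threshold of limma, of which there were 0. The interaction was -0.71 with a 95% interval from -1.81 to 0.39, so the data do not show that both zones responded equally.

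Sp7 and Pth1r stood beside Alpl. Sp7 (Entrez gene 170574, mm9 chr15:102187040-102197285, reverse strand) encodes osterix, a transcription factor of bone-forming and hypertrophic cells. It measured 11.83, 11.99 and 10.15 FPKM in SFZ Cntl, 7.84, 8.95 and 3.50 FPKM in SFZ Runx3cKO, 12.40, 14.82 and 12.36 FPKM in DZ Cntl and 10.52, 7.63 and 6.15 FPKM in DZ Runx3cKO. Pth1r (Entrez gene 19228, mm9 chr9:110624592-110649649, reverse strand) encodes the receptor for parathyroid hormone and its related protein, which restrains hypertrophy. It measured 30.23, 28.13 and 25.68 FPKM in SFZ Cntl, 22.45, 23.26 and 15.07 FPKM in SFZ Runx3cKO, 77.76, 57.25 and 60.59 FPKM in DZ Cntl and 56.19, 35.20 and 35.27 FPKM in DZ Runx3cKO. Both genes were apart between genotypes in both zones, and Pth1r was also higher in DZ than in SFZ in each genotype. The mean differences were -0.70 for Sp7 (standard error 0.19) and -0.55 for Pth1r (standard error 0.15), and the interactions of 0.08 and -0.17 had 95% intervals from -0.77 to 0.93 and from -0.84 to 0.50. With the Runx3cKO libraries of number 1 alone, the mean differences were -0.96 for Alpl, -0.39 for Sp7 and -0.25 for Pth1r, against Y-linked levels that then lay within the Cntl range.

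The remaining genes that stood lower in both zones by the rule were Rgcc, a regulator of the cell cycle (mean difference -0.59), the cell adhesion molecule Nrcam (-0.48), the amine-synthesizing enzyme Ddc (-0.34), Bzw2 (-0.32) and the centrosome-associated protein Tacc1 (-0.28). Those that stood higher in both were Pqlc3 (0.44), the homeobox gene Hoxc11 (0.44), Mtmr11 of the myotubularin family (0.43), H60b, a ligand of an activating receptor of natural killer cells (0.35), Fam83h (0.30), Apbb3 (0.24), the phospholipase Pnpla6 (0.21) and Nckipsd (0.18). All 8 mean differences of the higher genes were smaller in size than those of Alpl, Sp7 and Pth1r. That of Nckipsd was 0.11 without SFZ Runx3cKO library 3. Ddc reached 1 FPKM in Cntl libraries alone, and Hoxc11 in Runx3cKO libraries alone. Passing the filter was thus tied to their direction, and nothing is read from the separation of these genes. Fam83h had narrow groups, with 2.13, 2.01 and 2.47 FPKM in SFZ Cntl, 2.75, 2.75 and 2.97 FPKM in SFZ Runx3cKO, 2.55, 2.89 and 2.88 FPKM in DZ Cntl and 3.71, 3.68 and 3.88 FPKM in DZ Runx3cKO. H60b shares its family with close paralogs and overlaps Raet1c in the annotation, and Apbb3 and Fam83h also overlap another gene, so that their values are uncertain to that extent.

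**Figure D3:**
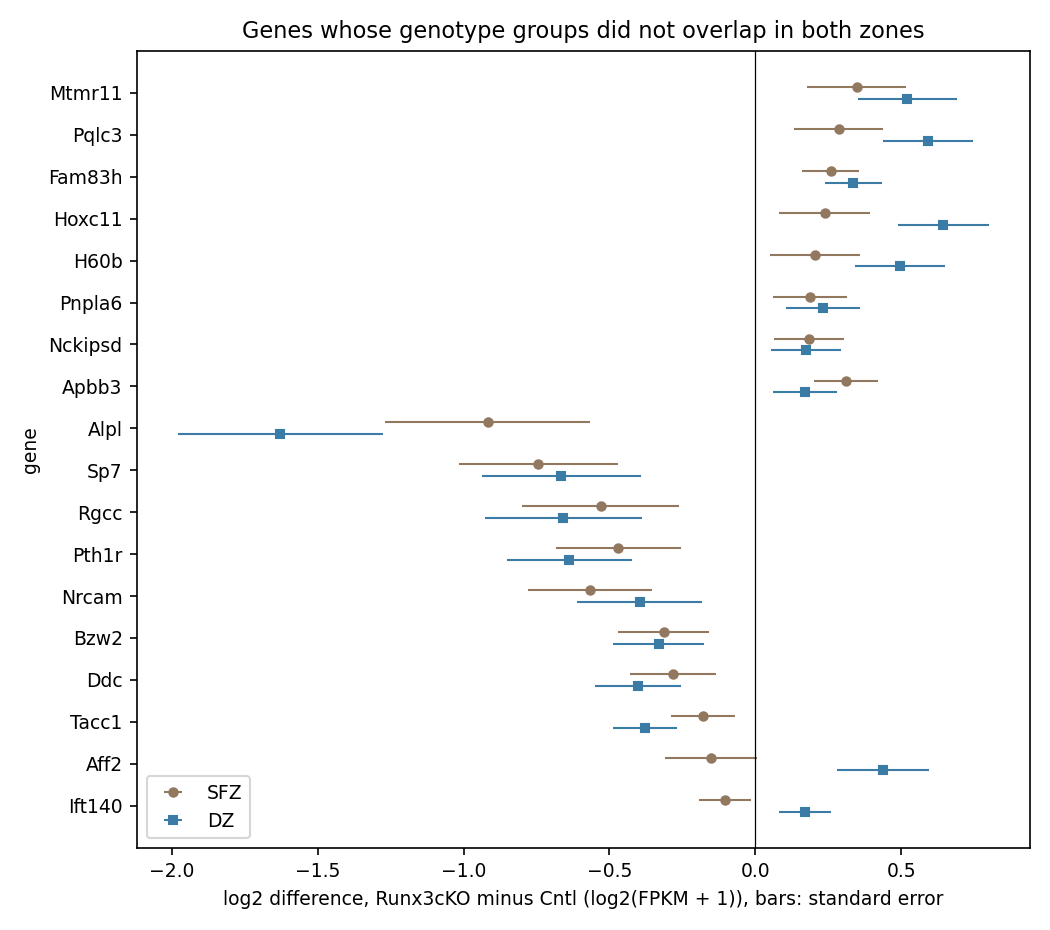
Difference between genotypes (Runx3cKO minus Cntl, log2(FPKM + 1)) with its standard error in SFZ (circles) and DZ (squares) for 18 genes whose groups were apart in both zones. The upper 8 genes are higher in Runx3cKO in both zones, the next 8 are lower, led by Alpl at -0.92 and -1.63, and Aff2 and Ift140 at the bottom lie on opposite sides of 0.

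Hypertrophy and mineralization genes were lower in Runx3cKO in both zones, as far as their medians show. Of 20 listed genes 16 were tested, 14 were lower in SFZ, 15 were lower in DZ and 13 were lower in both. Their median difference was -0.43 in SFZ and -0.38 in DZ, against -0.01 and 0.05 over all genes tested, where 18.2% of genes were lower in both. The SFZ median was -0.12 without SFZ Runx3cKO library 3 and -0.63 without SFZ Runx3cKO library 2, the DZ median was -0.28 without DZ Cntl library 1 and -0.67 without DZ Runx3cKO library 1, and with the Runx3cKO libraries of number 1 alone they were -0.24 and -0.26. For the mean over zones, 0 passed the adjusted threshold and 6 had an unadjusted limma p under 0.05, all lower, against 1.86% of all genes. These 6 were Alpl, Sp7, Pth1r, Bglap, Mmp13 and Ibsp, of which Ibsp was chosen for naming after its values were seen. Summed over the list, the SFZ libraries were at 789, 800 and 1047 FPKM in Cntl and 720, 778 and 484 FPKM in Runx3cKO. In DZ the sums were 1507, 1097 and 1942 FPKM in Cntl and 920, 1016 and 1134 FPKM in Runx3cKO. The groups were apart in SFZ by a small margin and overlapped in DZ, where each Runx3cKO sum was below the Cntl sum of its number. In bulk RNA, fewer hypertrophic cells and less of these transcripts per cell cannot be told apart.

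Mmp13 (Entrez gene 17386, mm9 chr9:7272514-7283333, forward strand), the collagenase that cleaves type II collagen, measured 117.52, 130.11 and 149.67 FPKM in SFZ Cntl and 84.30, 62.22 and 37.90 FPKM in SFZ Runx3cKO. In DZ cells the Cntl libraries held 51.28, 164.96 and 454.07 FPKM and the Runx3cKO libraries 26.27, 50.61 and 86.21 FPKM. The groups were apart in SFZ and overlapped in DZ, where Cntl ranged widely and each Runx3cKO library was below the Cntl library of its number. The mean difference was -1.41 (standard error 0.48), and the interaction was -0.51 with a 95% interval from -2.63 to 1.61. Bglap, which encodes osteocalcin, had a mean difference of -1.10 (standard error 0.35), which was -0.33 with the Runx3cKO libraries of number 1 alone. It has near-identical neighbours in the genome, so its value is uncertain. Ibsp, bone sialoprotein, had a mean difference of -1.41 (standard error 0.58) and overlapping groups in both zones, although each DZ Runx3cKO library was below the DZ Cntl library of its number. Col10a1, the collagen that defines hypertrophic cells, and Ihh, the signal they send, had overlapping groups, with differences of -0.75 and 0.03 in SFZ and -0.42 and -0.18 in DZ. Col10a1 ranged from 3.67 to 254.69 FPKM within the SFZ Runx3cKO group alone. Both were named after their values were seen.

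As these genes stood lower together, their promoter windows are shown for the letters bound by Runt proteins. The windows are from RefSeq on GRCm38.p6 and run from 250 bases before to 50 bases after an annotated start, on the strand of the gene. They are in lower case, with capitals for the 6-base motifs TGTGGT and TGCGGT read on both strands (ACCACA and ACCGCA on the other). Of 32851 such windows, 22.4% held at least 1 motif. Of the 6 genes with an unadjusted mean p under 0.05, 5 had a window, and 2 of their 8 windows held a motif, those of Mmp13 and Bglap. Over the whole list, 6 of 18 windows held one (33.3%). The 8 windows also include 3 of Pth1r that held none. In the windows of Mmp13 and Bglap the motif began 118 and 132 bases before the start. The windows of Ibsp and Alpl have no capitals, which says only that these letters are not in these windows.
Mmp13, chr9:7272264-7272563, forward strand: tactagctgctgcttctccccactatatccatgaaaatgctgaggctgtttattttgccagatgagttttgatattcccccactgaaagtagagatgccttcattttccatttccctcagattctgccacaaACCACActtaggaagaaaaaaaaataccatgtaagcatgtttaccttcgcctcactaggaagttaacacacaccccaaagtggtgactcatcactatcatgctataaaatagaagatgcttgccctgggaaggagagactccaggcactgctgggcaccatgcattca
Bglap, chr3:88384417-88384716, reverse strand: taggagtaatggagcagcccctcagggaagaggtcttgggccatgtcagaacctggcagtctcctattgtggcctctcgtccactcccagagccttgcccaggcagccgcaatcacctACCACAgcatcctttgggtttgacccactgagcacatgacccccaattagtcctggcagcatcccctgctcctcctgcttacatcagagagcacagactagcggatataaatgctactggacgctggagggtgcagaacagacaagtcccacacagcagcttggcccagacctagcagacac
Ibsp, chr5:104299037-104299336, forward strand: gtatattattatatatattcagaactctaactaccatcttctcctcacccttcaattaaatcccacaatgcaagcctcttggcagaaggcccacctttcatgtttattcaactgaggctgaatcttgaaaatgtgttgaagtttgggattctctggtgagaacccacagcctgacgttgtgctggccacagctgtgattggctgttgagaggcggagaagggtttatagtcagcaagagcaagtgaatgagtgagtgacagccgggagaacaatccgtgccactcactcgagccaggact
Alpl, chr4:137796335-137796634, reverse strand: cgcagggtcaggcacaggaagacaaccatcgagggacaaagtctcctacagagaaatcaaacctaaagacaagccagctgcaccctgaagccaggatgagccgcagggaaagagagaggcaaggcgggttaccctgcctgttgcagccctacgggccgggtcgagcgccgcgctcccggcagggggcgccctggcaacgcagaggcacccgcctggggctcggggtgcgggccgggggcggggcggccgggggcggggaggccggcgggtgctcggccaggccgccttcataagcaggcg
Alpl, chr4:137766426-137766725, reverse strand: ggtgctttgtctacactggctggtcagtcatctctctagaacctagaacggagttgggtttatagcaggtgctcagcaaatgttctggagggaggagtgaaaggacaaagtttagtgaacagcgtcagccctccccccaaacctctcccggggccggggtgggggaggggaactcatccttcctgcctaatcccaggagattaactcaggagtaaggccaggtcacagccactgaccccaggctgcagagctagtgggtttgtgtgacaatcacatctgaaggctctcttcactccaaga

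Cell division genes were the group that differed most in direction between zones. All 40 listed genes were tested, all 40 were lower in SFZ and all 40 were higher in DZ in Runx3cKO. Of all genes, 34.2% had these directions. Their median difference was -1.09 in SFZ and 0.48 in DZ, and the median interaction was 1.61, against 0.05 over all genes. None of the 40 had an adjusted or unadjusted interaction p under 0.05 in the main limma fit. That fit has no block by library number, and no blocked p is given here for these genes. The sums over the list were 581, 1033 and 1749 FPKM in SFZ Cntl and 397, 1499 and 202 FPKM in SFZ Runx3cKO, and in DZ 354, 801 and 253 FPKM in Cntl and 692, 1358 and 231 FPKM in Runx3cKO. The genotypes overlapped in both zones, and library 2 was the highest in 3 of the 4 groups. The median DZ difference was -0.05 without DZ Runx3cKO library 2 and 1.18 without DZ Runx3cKO library 3. The median SFZ difference was -0.40 without SFZ Runx3cKO library 3 and -1.93 without SFZ Runx3cKO library 2.

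Single members repeat this order of libraries. Mcm7, a subunit of the replicative helicase, measured 28.83, 36.68 and 53.40 FPKM in SFZ Cntl, 22.38, 47.66 and 15.51 FPKM in SFZ Runx3cKO, 17.73, 30.18 and 14.66 FPKM in DZ Cntl and 30.43, 44.09 and 15.41 FPKM in DZ Runx3cKO. Its interaction of 1.02 (standard error 0.66) was within the spread of the libraries in the fit without a block. Ccnb2, a mitotic cyclin, had an interaction of 1.77 with a standard error of 1.15, and Kif20a, a kinesin of cytokinesis, one of 1.76 with a standard error of 1.19, which were 1.01 and 1.02 without SFZ Runx3cKO library 3. In DZ, Mcm7 and Ccnb2 were higher in Runx3cKO at each number, at number 3 by a small margin. Other members went the other way at number 3. There Kif20a was at 5.65 FPKM in Runx3cKO and 6.06 FPKM in Cntl, and Mki67 and Top2a were also lower in Runx3cKO. The list sum at number 3 was 231 FPKM in Runx3cKO and 253 FPKM in Cntl. With the Runx3cKO libraries of number 1 alone the cell division medians were -1.36 in SFZ and 0.66 in DZ. At a difference of at least 0.5 in both zones, a size chosen after seeing the data, 104 genes were lower in SFZ and higher in DZ, 6 were higher in SFZ and lower in DZ, 14 were higher in both and 23 were lower in both. Of all 11765 genes tested, 409 reached this size in SFZ and 828 in DZ, in either direction. Of the 104, 19 were listed cell division genes, and Prg4 was also among them. The list holds 40 of the genes tested. Other cell division genes outside the list were also among the 104, such as Foxm1, Cdca8 and Kif2c, named after their values were seen. The 19 are therefore not all cell division genes of this class. The 6 were Apoe, Ptn, Matn4, Aldoc, Cpxm1 and Matn1. Of the 23, 4 were the Y-linked genes and 5 were hypertrophy and mineralization genes, a list with 16 of the genes tested.

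**Figure D4:**
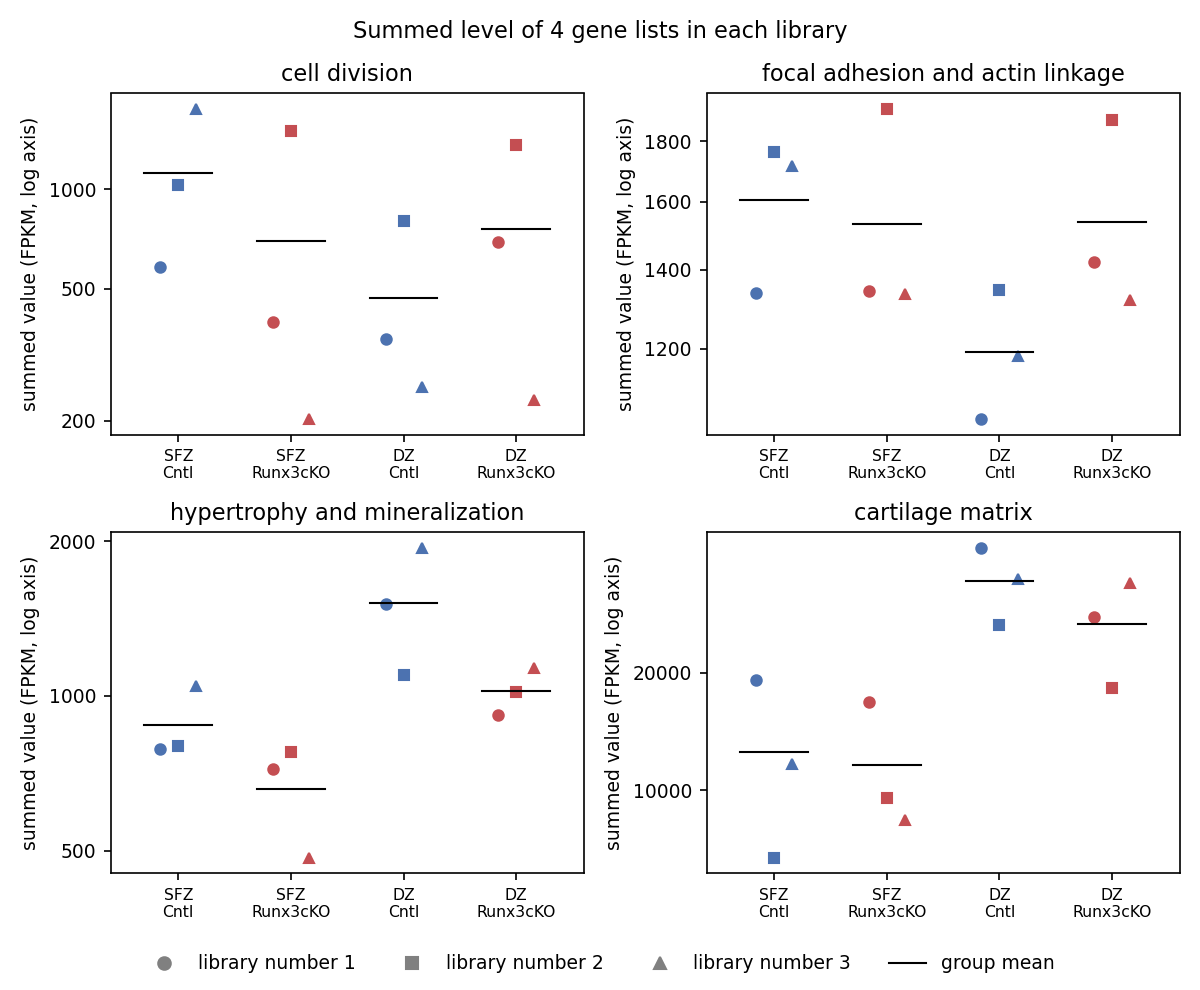
Summed FPKM (log axis) of 4 gene lists in each of the 12 libraries, with 1 point per library, its shape giving the library number, and a line at the group mean. Cell division sums run from 202 to 1749 FPKM with overlapping genotypes in both zones, whereas hypertrophy and mineralization sums in SFZ lie at 484 to 778 FPKM in Runx3cKO and 789 to 1047 FPKM in Cntl.

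Adhesion and actin-linkage genes were mostly higher in Runx3cKO in DZ cells, and the list was not tested for a difference between zones. Of 38 genes tested, 36 were higher in DZ and 30 were lower in SFZ, with a median difference of 0.28 in DZ and -0.05 in SFZ and a median interaction of 0.36, which was 0.21 without DZ Cntl library 1 and 0.50 without SFZ Cntl library 1. No member passed the adjusted threshold, and 3 had an unadjusted interaction p under 0.05, Ptk2b, Sorbs3 and Zyx. Of all genes 0.841% had one, but Ptk2b and Sorbs3 had been given for the comparison, so nothing is read from this count. Over all genes, 7270 of 11765 were higher in DZ and 6165 were lower in SFZ. Zyx, the focal adhesion protein zyxin, measured 56.49, 87.85 and 108.56 FPKM in SFZ Cntl and 63.85, 83.61 and 42.81 FPKM in SFZ Runx3cKO. In DZ it measured 49.10, 50.79 and 36.62 FPKM in Cntl and 77.33, 79.74 and 50.29 FPKM in Runx3cKO. The groups of Zyx overlapped in both zones, although in DZ each Runx3cKO library was above the Cntl library of its number, and its interaction was 0.98 (standard error 0.42). Vcl, vinculin, measured 11.68, 26.93 and 25.26 FPKM in DZ Cntl and 38.35, 64.51 and 31.99 FPKM in DZ Runx3cKO, which did not overlap, and its interaction was 1.12 (standard error 0.59). Actn1, alpha-actinin, and the integrins Itgb1, Itga5 and Itgav had interactions of 0.86, 0.41, 0.49 and 0.43, none with an unadjusted p under 0.05. The DZ groups of Actn1, Itgb1 and Itga5 overlapped, with Runx3cKO higher at each number. Those of Itgav overlapped too, but at number 3 Runx3cKO was lower (21.91 against 24.69 FPKM). The summed level of the list in DZ was 1046, 1346 and 1183 FPKM in Cntl and 1421, 1875 and 1319 FPKM in Runx3cKO, so that the groups overlapped by library 3 while each Runx3cKO sum was above the Cntl sum of its number. The median SFZ difference of this list turned positive, to at most 0.02, without SFZ Cntl library 2 or 3 or SFZ Runx3cKO library 1, whereas its DZ median stayed between 0.14 and 0.40. With the Runx3cKO libraries of number 1 alone the medians were -0.25 in SFZ and 0.17 in DZ. Library 2 had the highest sum of both this list and the cell division list in 3 of the 4 groups, and the part of cell division in this result was not tested. Zyx and Vcl each overlap a gene on the opposite strand, and Actn1 and the integrins were named after their values were seen.

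Cartilage matrix genes were lower in Runx3cKO in DZ cells in 18 of 21 tested genes, with a median of -0.44. In SFZ cells 10 of 21 were lower, with a median of 0.07. Over all genes tested, 38.2% were lower in DZ and 52.4% were lower in SFZ. No member had an unadjusted interaction p under 0.05. Matn1, a matrilin of the cartilage matrix, had differences of 0.51 in SFZ and -1.03 in DZ, with an interaction of -1.54 (standard error 1.18), which was -0.64 without DZ Runx3cKO library 2 and -2.28 without DZ Runx3cKO library 3. In DZ the groups of Matn1 and Col11a1 overlapped, with Runx3cKO lower at each number. Col11a1 had differences of -0.06 and -0.44, and Col11a2 had -0.01 and -0.69. Of the 21, Col11a2, Hapln1 and Sox5 had DZ groups that did not overlap, all lower, where 3.03% of all genes stood lower in DZ. Hapln1, the link protein that ties aggrecan to hyaluronan, measured 821, 664 and 590 FPKM in DZ Cntl and 475, 342 and 441 FPKM in DZ Runx3cKO, and it and Sox5 were named after their values were seen. The SFZ median of this list was -0.39 without SFZ Cntl library 2 and 0.51 without SFZ Cntl library 1, so that no direction can be read there. The DZ median was -0.13 without DZ Runx3cKO library 2, -0.24 without DZ Cntl library 1 and -0.65 without DZ Runx3cKO library 3. With the Runx3cKO libraries of number 1 alone the list's medians were 0.63 in SFZ and -0.30 in DZ, and the mean difference of Col11a2 turned from -0.35 to 0.042.

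Among the other lists, the 7 tested keratinocyte-associated genes were all higher in DZ, with a median of 0.80, and their summed level of 27 listed genes was 15.0 to 21.8 FPKM in DZ Cntl and 37.8 to 49.5 FPKM in DZ Runx3cKO. Over all genes tested, 61.8% were higher in DZ. The defining keratins Krt5 and Krt14 were at most 0.13 FPKM in every library. Perp, a membrane protein of desmosomes, was higher in both zones, with differences of 0.96 and 0.82 and a mean of 0.89 (standard error 0.24), and its groups overlapped in SFZ. Of 18 tested macrophage genes 13 were lower in both zones and of 26 protease and inhibitor genes 8 were, where 18.2% of all genes were. Of 11 tested chemokine and cytokine genes 6 differed in sign between zones, where 54.2% of all genes did. Ccl2, a chemokine for monocytes, measured 4.29, 19.08 and 18.28 FPKM in SFZ Cntl and 2.93, 4.63 and 4.71 FPKM in SFZ Runx3cKO, so that the groups overlapped by SFZ Cntl library 1, and at most 2.53 FPKM in any DZ library, with an interaction of 1.62 (standard error 0.76). Of 23 tested immediate early and stress genes 15 differed in sign, with medians of -0.27 in SFZ and 0.29 in DZ. The osteoclast, endothelial and tendon lists had medians between -0.12 and 0.12 in each zone. The 6 tested skeletal muscle genes had medians of -0.90 in SFZ and -0.01 in DZ. Among SFZ libraries each of these 6 genes was highest in Cntl library 2, and the SFZ median without that library was not computed.

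**Figure D5:**
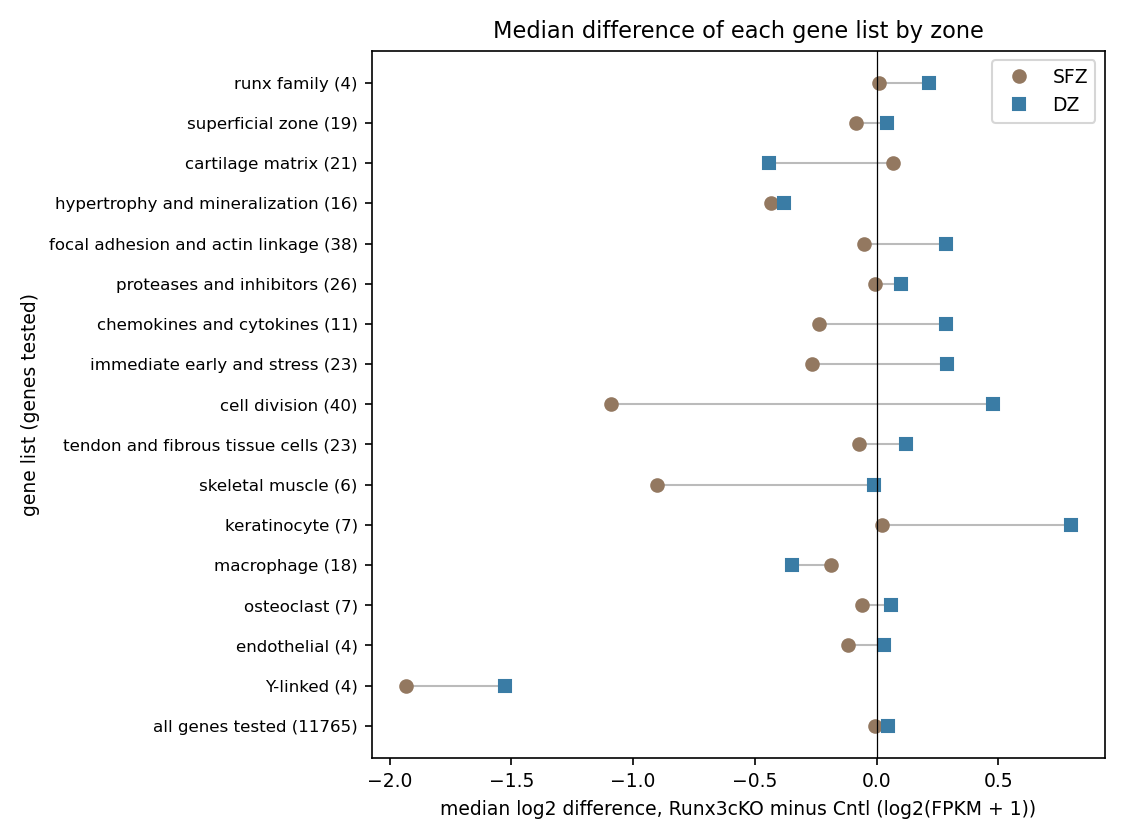
Median difference between genotypes (Runx3cKO minus Cntl, log2(FPKM + 1)) of the tested genes of each list in SFZ (circles) and DZ (squares), with the number of tested genes in brackets and all genes tested in the bottom row. Cell division genes are at -1.09 and 0.48, hypertrophy and mineralization genes at -0.43 and -0.38, and the Y-linked genes are the lowest in both zones.

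A gene set chosen in 1 zone was also read in the libraries of the other, which come from the same mice. The 100 genes with the lowest unadjusted p among those higher in SFZ were higher in DZ in 73 cases, with a median of 0.09, against 61.8% of all genes and a median of 0.05. The 100 lower in SFZ were lower in DZ in 48 cases, against 38.2% of all genes. The 100 genes higher in DZ were higher in SFZ in 63 cases, against 47.6% of all genes. The 100 genes lower in DZ were lower in SFZ in 73 cases, with a median of -0.08, against 52.4% of all genes. These shares moved widely with single libraries, from 44 to 80, from 20 to 86, from 34 to 81 and from 27 to 88 in the same order, so that likeness and unlikeness of the zones both depend on which library is present.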

How the data were processed

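RNA-seq of 12 libraries (SFZ and DZ cells, Cntl and Runx3cKO, 3 each) was read from 1 table. The values were taken as FPKM, a unit inferred from their decimals, sums and dependence on transcript length, which the authors had scaled between libraries by the trimmed mean of M values before they were deposited. The submitters' processing notes name Bowtie 0.12.2 and mm9, and the counting tool is not given in the sources used here. No counts were used, so depth is unknown and no count model was run. The annotation terms in the table were not used.

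Of 17536 genes, 11765 reached 1 FPKM in 3 or more of the 12 libraries and were tested on log2(FPKM + 1) with a pseudocount of 1, in 1 fit of 4 groups (R 4.3.3, limma 3.58.1 with a mean-variance trend and Benjamini-Hochberg adjustment). Scripts also used Python 3.11.15, pandas 2.3.3, NumPy 2.4.6 and matplotlib 3.10.9, and the fit was tested on simulated data. The exact two-sided permutation test, printed for Runx3 alone, exchanged genotypes within zones in 400 arrangements (smallest p 0.005, and 0.1 within a zone). The main fit had no block. The blocked alternatives matched libraries by number over all 4 groups, over genotypes within each zone, or over zones within each genotype. Deviations from the group means of same-numbered Cntl and Runx3cKO libraries, which come from different mice, correlated at 0.658, 0.780 and 0.687 in DZ. In SFZ they correlated at 0.790, -0.103 and -0.404, so matching genotypes by number held at each number in DZ and only at number 1 in SFZ. Between same-numbered SFZ and DZ libraries the correlations were 0.573, 0.107 and -0.154 in Cntl and 0.415, 0.779 and 0.655 in Runx3cKO. Positions are from the mm9 annotation.

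Named genes were those given for the comparison, the 10 with the lowest interaction p in each direction, up to 8 per class whose groups did not overlap in either zone, by the smaller of their differences, and up to 4 per list by lowest p. Other names were added after their values were seen and are marked. The members and lists were chosen with earlier results of these data known. Alternatives were other pseudocounts, filters and normalizations, a replicate block, leaving out each library, and, chosen after seeing the data, the Runx3cKO libraries of number 1 alone.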

Additional observations from a re-analysis of the deposited data

Results flagged for a closer look

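Aff2 and Ift140 stood out because every Runx3cKO library lay below every Cntl library in SFZ cells and above every Cntl library in DZ cells. The interaction was 0.59 for Aff2 and 0.27 for Ift140 on the log2(FPKM + 1) scale, and neither passed the adjusted threshold of limma (adjusted p = 0.999 for both).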

How the results depend on the processing

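No gene had an adjusted limma p under 0.05 for the interaction, the mean over zones or either zone, under any alternative run. At an unadjusted p under 0.05, counts moved. Without a filter on low values they were 252 for the interaction, 413 for the mean, 228 in SFZ and 616 in DZ, and with a mean of at least 10 FPKM they were 41, 97, 10 and 208, where fewer genes were tested. With a replicate block by library number they were 506, 596, 120 and 1055, within zone 462, 586, 130 and 1034, and within genotype 949, 728, 345 and 1212. In deviations from the group means, same-numbered libraries correlated at 0.384 to 0.790, except those with SFZ Cntl library 2 or 3 (-0.404 to 0.214), and the closest library of another group had the same number in 25 of 36 comparisons. SFZ Cntl library 2 was closest to number 3 in 2 of 3 groups and SFZ Cntl library 3 to number 2 in all 3, so whether numbers mark mice is not settled, and blocked SFZ counts may pair these libraries wrongly. The block within genotype takes the error of the mean and of each zone's difference from within mice only, so its counts for these are too high by construction. In SFZ, quantile normalization gave 55 and the Runx3cKO libraries of number 1 alone gave 116. Genes apart in opposite directions were 9 without the filter, 0 at a mean of at least 10 FPKM and 8 after quantile normalization, and genes apart in the same direction were 9 at a mean of at least 10 FPKM.

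Leaving out 1 library gave 36 to 720 genes for the interaction (fewest without SFZ Cntl library 2, most without SFZ Runx3cKO library 2), 124 to 412 for the mean, 24 to 699 in SFZ, 208 to 646 in DZ, 6 to 90 for opposite and 41 to 84 for the same direction. The share of genes with the same sign was 35.3% to 59.4%, and r was -0.453 to 0.243, being 0.0347 without SFZ Cntl library 2, 0.155 without SFZ Runx3cKO library 1, 0.0687 without DZ Cntl library 3 and 0.217 without DZ Runx3cKO library 2. The interaction of Runx3 was -0.28 to 0.49, and the medians ranged from -0.055 to 1.18 for cell division in DZ, from -0.18 to 0.025 for adhesion in SFZ and from -0.39 to 0.51 for cartilage matrix in SFZ. Of 72 results on single genes, 71 kept their sign without any 1 library, the exception being Runx3. Most of these genes were named for a low p or for groups apart in these same libraries, so this was largely set by the choice. Genes named only for the macrophage, osteoclast, endothelial, skeletal muscle, tendon, immediate early and chemokine lists were not included.

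For genes chosen in 1 zone, the percent on the same side in the other ranged from 44 to 80 (SFZ higher), 20 to 86 (SFZ lower), 34 to 81 (DZ higher) and 27 to 88 (DZ lower). SFZ-higher genes gave 53 without the filter, 62 after quantile normalization and 57 with median-of-ratios size factors. SFZ-lower genes gave 22 with the block within genotype, DZ-higher genes 47 with the block and 35 with it within genotype, and DZ-lower genes 50 with number 1 alone. With number 1 alone, the sign also turned for the median interaction of hypertrophy genes (0.028), the interactions of Runx3 (-0.054) and Prelp (-0.23), and the mean differences of Col11a2 (0.042), Ddx3y (0.11), Eif2s3y (0.095), Uty (0.10) and Kdm5d (0.19). Apart from the constructions named, the cause was not tested. The depth is unknown, and 3 libraries a group limit the precision of every difference.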
